A study of Mus musculus with 22 samples.

Results

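The early growth response factors Egr1, Egr2 and Egr3, their co-repressors Nab1 and Nab2, and the orphan nuclear receptors Nr4a1, Nr4a2 and Nr4a3 were followed in starved mouse fibroblasts that were restimulated with serum or in which E2F1 was induced. The genes were taken by symbol, and all 8 of 8 were among the 11208 genes of the deposited table. All samples were NIH/3T3, an immortalized mouse embryo fibroblast line, with a stably integrated, doxycycline-inducible construct for E2F1 (E2F1 line) or with its empty vector (EV line). Every culture was first starved for 48 h in 0.25% heat-inactivated serum, and this includes the 0 h controls. The E2F1 line was then sampled at 0 h and after 2, 6 and 12 h in 500 ng/ml doxycycline. The EV line was sampled at 0 h, after 2, 6 and 12 h in the same doxycycline, and after 2, 6 and 12 h in 10% serum. This gave 11 groups of 2 libraries, 22 in all, from polyadenylated RNA. The sources used here do not say whether a line is 1 clone or a pool of cells, or whether the libraries of a group came from separate cultures, so p-values measure the spread between libraries, which may be technical.

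EGR proteins are zinc finger transcription factors of the immediate early class, whose transcription is switched on by growth factors through ERK signalling and the serum response factor SRF without new protein synthesis. NAB proteins bind the EGR factors and repress transcription at their target genes, and Nab2 is itself an EGR target, so the pair forms a feedback loop. NR4A receptors are immediate early factors too; they act without a known hormone ligand, respond to cyclic AMP and calcium signals through CREB and MEF2, and bind DNA as monomers or with RXR. In cultured fibroblasts the burst that follows serum is known to peak within the first hour for many of these genes, before the earliest time sampled here.

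The promoters of 5 genes that rose in serum, under E2F1 or in both are shown, so that the sites each of them holds can be read beside its response. RefSeq (GRCm38.p6) gave a window of 250 bases before to 50 bases after the start site for 6 of the 8 genes, Egr2, Nab1, Nab2, Nr4a1, Nr4a2 and Nr4a3. Egr2 has 5 RefSeq windows, and the one whose start is a GENCODE transcript start was taken. Each sequence is written 5′ to 3′ on the strand of its gene. Capitals mark every match, on either strand, to a motif that was searched.
Nr4a1, chr15:101266596-101266895 (+): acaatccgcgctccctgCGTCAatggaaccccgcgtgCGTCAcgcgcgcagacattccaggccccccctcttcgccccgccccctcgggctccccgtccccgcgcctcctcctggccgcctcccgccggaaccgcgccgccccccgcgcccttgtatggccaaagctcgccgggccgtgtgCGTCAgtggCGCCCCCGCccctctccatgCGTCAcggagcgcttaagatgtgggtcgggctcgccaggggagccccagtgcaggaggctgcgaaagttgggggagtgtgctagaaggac
Nr4a2, chr2:57123954-57124253 (-): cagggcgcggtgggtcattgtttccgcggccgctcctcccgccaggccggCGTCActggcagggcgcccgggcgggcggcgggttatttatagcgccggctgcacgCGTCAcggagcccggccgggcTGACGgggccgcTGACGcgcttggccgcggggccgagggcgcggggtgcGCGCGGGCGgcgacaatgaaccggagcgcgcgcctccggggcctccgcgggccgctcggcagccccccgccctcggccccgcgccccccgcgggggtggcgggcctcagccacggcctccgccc
Nr4a3, chr4:48045055-48045354 (+): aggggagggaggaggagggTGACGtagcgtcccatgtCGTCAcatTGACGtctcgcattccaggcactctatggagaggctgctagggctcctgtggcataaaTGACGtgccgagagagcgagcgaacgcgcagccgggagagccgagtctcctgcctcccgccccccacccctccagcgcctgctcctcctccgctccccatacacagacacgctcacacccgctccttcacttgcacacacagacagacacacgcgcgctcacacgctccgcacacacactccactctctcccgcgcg
Egr2, chr10:67537619-67537918 (+): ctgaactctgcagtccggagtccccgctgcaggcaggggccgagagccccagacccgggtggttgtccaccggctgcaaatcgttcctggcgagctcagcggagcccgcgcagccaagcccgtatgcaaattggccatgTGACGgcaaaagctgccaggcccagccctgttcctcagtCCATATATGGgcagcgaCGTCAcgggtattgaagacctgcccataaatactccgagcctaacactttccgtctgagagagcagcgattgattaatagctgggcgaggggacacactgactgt
Nab1, chr1:52500399-52500698 (-): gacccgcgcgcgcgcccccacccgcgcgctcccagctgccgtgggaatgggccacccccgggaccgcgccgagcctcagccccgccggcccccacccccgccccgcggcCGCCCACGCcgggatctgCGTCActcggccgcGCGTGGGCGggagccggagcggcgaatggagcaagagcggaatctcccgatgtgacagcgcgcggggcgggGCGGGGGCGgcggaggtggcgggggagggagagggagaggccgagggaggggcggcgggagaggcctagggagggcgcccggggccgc
The searched motifs were TGACG, the core of the cyclic AMP response element bound by CREB; TGACGTCA, its full form, which contains the core; GCGNGGGCG, an EGR site; the CArG box bound by SRF; AAAGGTCA, the site of an NR4A monomer; TGANTCA, an AP-1 site; and TTTCGCGC and TTTGGCGC, E2F sites. TGACG was found 4 times in each of the 3 NR4A promoters, on 1 strand or the other, between positions -233 and -36 in Nr4a1, -200 and -107 in Nr4a2 and -231 and -143 in Nr4a3, counted from the start site. Of all 32851 RefSeq windows of this length 20.8% held TGACG at least once and 0.231% (76 windows) at least 4 times. Egr2 had 2 copies, flanking a CArG box at -72 to -63, and 1.63% of all windows had a CArG box. Nab1 had 1 TGACG and 3 EGR sites, at -141, -109 and -38, against 5.55% of windows with at least 1 EGR site and 0.195% with at least 3. Nr4a1 and Nr4a2 each held 1 EGR site. None of the 6 windows held TGACGTCA (1.79% of all windows), AAAGGTCA (1.51%), TGANTCA (7.81%), TTTCGCGC (0.323%) or TTTGGCGC (0.514%), and the Nab2 window held no match to any motif. That window, chr10:127666654-127666953, lies inside the annotated gene (chr10:127660918-127668568, - strand), past its outermost start. The Nr4a1 and Egr2 windows also lie inside their genes. Sites near other starts were not searched, so a lack of matches holds for these windows only. Of E2F sites only TTTCGCGC and TTTGGCGC were searched, and other forms may be present. The 6 windows had a GC content of 60.0% to 81.7%, above the median of 52.7% over all windows, and windows rich in GC hold more matches to GC-rich motifs by composition alone.

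Values are normalized read counts as the authors deposited them, with totals of 34014608 to 46057140 per library. The 4 libraries at 2 and 6 h of serum had the highest totals, 40132639 to 46057140, so fold changes rest on the authors' scaling. E2f1, the induced gene, had 1703 and 1637 counts in starved E2F1 cells, then 1535 and 1755 at 2 h, 3806 and 3602 at 6 h and 2683 and 2845 at 12 h. Its RNA was higher than at 0 h by a log2 change of 1.15 at 6 h (SE 0.11, limma adjusted p = 9.61e-08) and 0.73 at 12 h (SE 0.11, limma adjusted p = 1.65e-05), and by -0.02 at 2 h (limma adjusted p = 0.946). In the EV line E2f1 did not pass in doxycycline (limma adjusted p = 0.134, 0.908 and 0.536 at 2, 6 and 12 h). At 12 h of serum it was at 4615 and 4247 there, above every library of the E2F1 line. That log2 change was 1.43 (SE 0.11, limma adjusted p = 4.12e-09), in a line with the empty vector only. Whether reads of the construct are counted under this symbol was not tested. All 12 fibroblast markers, with Lum the lowest at 115 or more, were in the table, and none of the 15 markers of epithelial, endothelial, blood, fat or muscle cells was. The lowest mean of any gene in the table is 99.6, so a marker at a low level or in few cells could be absent from it. Ddx3y, a gene of the Y chromosome, was at 316 to 580 in the E2F1 line and at 4 to 9 in the EV line at 0 h and 12 h of doxycycline, but at 18 to 170 in the other EV libraries, with the highest values, 132 and 170, at 2 h of serum and the next, 103 and 71, at 2 h of doxycycline. Whether these EV libraries hold reads of the E2F1 line, and what part that would have in the results below, was not tested. The highest values in any library of the E2F1 line were 1027 for Nr4a1, 601 for Egr2, 814 for Nr4a2, 398 for Nr4a3, 1787 for Egr3, 10500 for Egr1, 5037 for Nab1 and 3610 for Nab2. The lowest were 241, 93, 106, 4, 332, 2216, 2196 and 2261 in the same order.

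Serum split the EGR family. At 2 h Egr2 had risen and Egr1 had fallen, while Egr3 did not pass the test. Egr2 (ENSMUSG00000037868.15, chr10:67535475-67542188, + strand, GRCm38), known for its role in myelination and in T cells, went from 185 and 368 at 0 h to 4707 and 4575 at 2 h. The groups were far apart: the log2 change was 4.15 (SE 0.38), 17.7-fold, with a limma adjusted p of 1.68e-08. Egr1 (ENSMUSG00000038418.7, chr18:34859823-34864984, + strand), the family's best known member in growth factor responses, went from 3313 and 3708 to 868 and 838. It was thus 4.11-fold lower at 2 h than in starved cells, a log2 change of -2.04 (SE 0.23, limma adjusted p = 2.4e-07). Egr3 (ENSMUSG00000033730.4, chr14:70077203-70082614, + strand), which acts in muscle spindles and lymphocytes, had 769 and 1211 at 0 h and 1370 and 1192 at 2 h. These values overlapped, and the change of 0.4 (SE 0.35) did not pass (limma adjusted p = 0.316). Across the 8 genes, 4 were higher and 3 lower at 2 h, where 70.9% of all genes passed the same test, so the count itself does not set the genes apart. RNA was taken from whole cultures, and a change in every cell cannot be told apart from a change in the share of responding cells.

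Both co-repressors were lower at 2 h. Nab2 (ENSMUSG00000025402.12, chr10:127660918-127668568, - strand) fell from 3923 and 4036 to 1100 and 1386, its lowest values in any group. The log2 change was -1.69 (SE 0.11, limma adjusted p = 9.81e-11), 3.22-fold. Nab1 (ENSMUSG00000002881.14, chr1:52457294-52500679, - strand) moved from 2053 and 2168 to 1753 and 1724. Its groups did not overlap, but the change of -0.28 (SE 0.12, limma adjusted p = 0.0435) was lost when any 1 of the 4 libraries was left out (adjusted p = 0.0677 to 0.162). Exons of Nab2 share 1050 bases, 35.7% of its exon length, with the antisense gene Gm16229, 151 bases with Nemp1 and 40 bases with Stat6, all on the other strand. The sources used here do not say whether counting used the strand, so reads from there are uncertain for Nab2; the other 7 genes overlap no annotated gene.

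All 3 NR4A genes rose at 2 h of serum. Nr4a1 (ENSMUSG00000023034.7, chr15:101254269-101274795, + strand), also called Nur77 and known in T cell death and metabolism, went from 498 and 782 to 15010 and 18520. Both libraries were far above all others, and the rise was 26.7-fold (log2 4.74, SE 0.32, limma adjusted p = 2.76e-10). Nr4a2 (ENSMUSG00000026826.13, chr2:57106830-57124003, - strand), also called Nurr1 and needed for dopamine neurons, went from 255 and 229 to 1097 and 1052, a log2 change of 2.15 (SE 0.22, limma adjusted p = 9.36e-08). Nr4a3 (ENSMUSG00000028341.9, chr4:48045153-48086447, + strand), also called Nor1, was almost silent in starved cells, at 19 and 12, and stood at 454 and 596 at 2 h. Its log2 change was 5.01 (SE 0.61, limma adjusted p = 6.79e-07), 32.3-fold. The authors' deposited table of serum at 2 h lists the same directions, with log2 fold changes of 5.05 for Nr4a3, 4.75 for Nr4a1, 4.15 for Egr2, 2.16 for Nr4a2 and -2.03 for Egr1; its rows all have an absolute change of 2.0 or more, so a gene with a smaller change could not be in it.

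**Figure D1:**
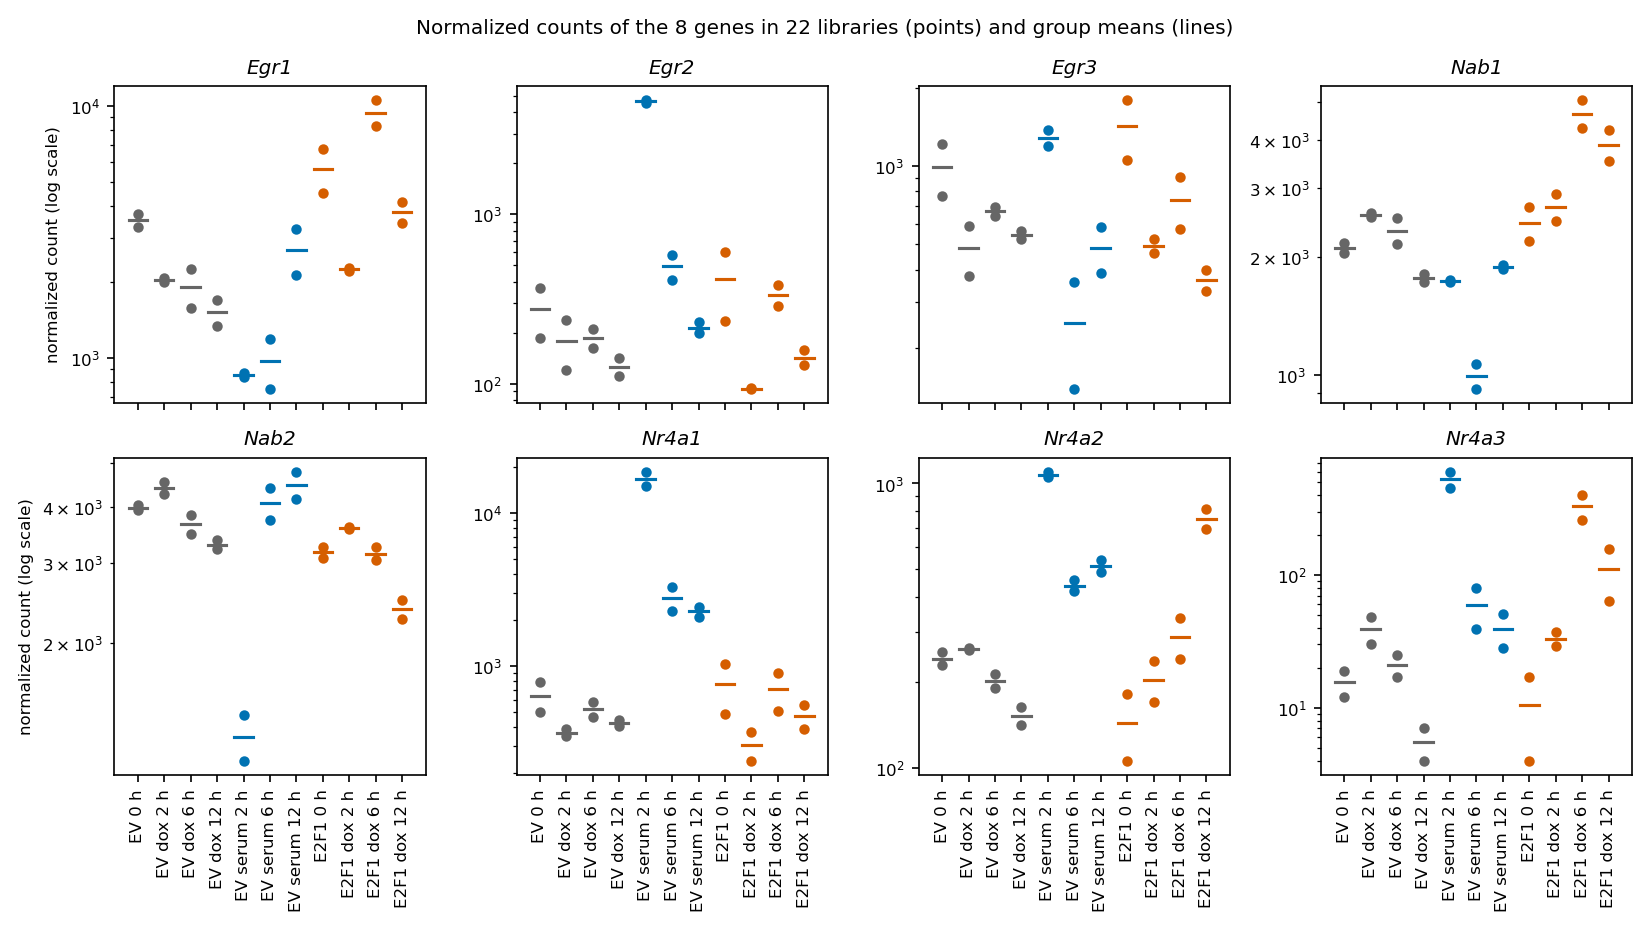
Normalized read counts (log axis, with its own range in each panel) of the 8 genes in each of 11 groups; points are the 2 libraries and lines the group means, with the EV line at 0 h and in doxycycline in grey, EV in serum in blue and the E2F1 line in orange. Egr2, Nr4a1, Nr4a2 and Nr4a3 peak at 2 h of serum, where Nab2 has its lowest values (1100 and 1386), while Egr1 and Nab1 are highest in the E2F1 line at 6 h.

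The NR4A genes and Egr2 then came down at different rates. Nr4a1 kept 3290 and 2298 counts at 6 h and 2103 and 2441 at 12 h, still above both 0 h libraries by 2.14 (SE 0.32, limma adjusted p = 1.09e-05) and 1.86 (SE 0.32, limma adjusted p = 5.79e-05) on the log2 scale. Nr4a2 was at 418 and 456, then 489 and 540, higher than at 0 h by 0.85 (SE 0.22, limma adjusted p = 0.00265) and 1.09 (SE 0.22, limma adjusted p = 0.000352). Nr4a3 was at 39 and 80, then 28 and 51. Its log2 change from 0 h was 1.82 at 6 h (SE 0.61, limma adjusted p = 0.0133) and 1.27 at 12 h (SE 0.61), where it no longer passed (limma adjusted p = 0.0747). With quantile normalization the 12 h change did pass (1.77, limma adjusted p = 0.00532). The 6 h call for Nr4a3 was lost without EV 0 h replicate 2 (1.51, adjusted p = 0.0875) or without serum 6 h replicate 2 (1.31, adjusted p = 0.13). Egr2 had returned to 576 and 411 at 6 h, a change of 0.9 from 0 h (SE 0.38, limma adjusted p = 0.0448) that was lost without EV 0 h replicate 1 (0.4, adjusted p = 0.432) or serum 6 h replicate 1 (0.65, adjusted p = 0.233), with every library scaled to the same total (0.68, adjusted p = 0.113) and with only genes of mean 500 or more (adjusted p = 0.0508). At 12 h it was at 198 and 230, within the range of the starved cells.

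Egr1, Egr3 and Nab1 were at or near their lowest values at 6 h of serum. Egr1 had 1183 and 752 there, lower than at 0 h by a log2 change of -1.89 (SE 0.23, limma adjusted p = 8.33e-07), and 2128 and 3244 at 12 h, a change of -0.42 that did not pass (limma adjusted p = 0.116) but did without serum 12 h replicate 2 (-0.72, adjusted p = 0.0235) and with quantile normalization (-0.6, adjusted p = 0.0245). Egr3 fell to 359 and 139 at 6 h, a change of -2.11 (SE 0.35, limma adjusted p = 4.1e-05) that was -2.79 without serum 6 h replicate 1 and -1.42 without replicate 2. Its 12 h values of 387 and 581 were lower than at 0 h by -1.02 (SE 0.35, limma adjusted p = 0.0167), a call lost without EV 0 h replicate 2 (-0.7, adjusted p = 0.162) or serum 12 h replicate 1 (-0.73, adjusted p = 0.155). Nab1 reached 1064 and 920 at 6 h, its lowest in any group, with a change of -1.09 (SE 0.12, limma adjusted p = 2.31e-07). At 12 h it was at 1863 and 1911, still below the 2053 and 2168 of 0 h. That change of -0.16 did not pass (limma adjusted p = 0.24) but did with quantile normalization (-0.32, limma adjusted p = 0.0171). Nab2 had already recovered at 6 h, to 3738 and 4389, and stood at 4148 and 4767 at 12 h; its changes from 0 h of 0.03 (limma adjusted p = 0.841) and 0.16 (limma adjusted p = 0.186) did not pass, and the sign of the first turned when every library was scaled to the same total (-0.19) or quantile normalized (-0.23). In all, serum left 4 of the 8 genes raised and 3 lowered after 6 h, with 67.5% of all genes called. After 12 h it left 2 raised and 1 lowered, with 65.7% of all genes called.

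The steps between serum times carried the same order. From 2 to 6 h, where 48.5% of all genes were called, 6 of the 8 genes fell and Nab2 alone of the 8 rose, by 1.71 (SE 0.11, limma adjusted p = 8.51e-10). The falls ran from -0.81 (SE 0.12) for Nab1 to -3.25 (SE 0.38) for Egr2, with -2.51 for Egr3, -2.6 for Nr4a1, -1.3 for Nr4a2 and -3.19 for Nr4a3; the largest limma adjusted p among the 6 was 0.000291. The Egr3 fall was -3.19 without serum 6 h replicate 1 and -1.83 without replicate 2. From 6 to 12 h, with 39.9% of all genes called, Egr1 (1.48, SE 0.23, limma adjusted p = 5.19e-05), Nab1 (0.93, SE 0.12, limma adjusted p = 6.85e-06) and Egr3 (1.08, SE 0.35, limma adjusted p = 0.0211) rose and Egr2 fell further (-1.19, SE 0.38, limma adjusted p = 0.0188). The later Egr3 step was 1.76 without serum 6 h replicate 1, and it did not pass without serum 6 h replicate 2 (0.4, adjusted p = 0.403) or serum 12 h replicate 2 (0.79, adjusted p = 0.181). The Egr2 step did not pass without serum 6 h replicate 1 (-0.94, adjusted p = 0.124) or serum 12 h replicate 1 (-1.08, adjusted p = 0.0956).

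Induction of E2F1 gave another pattern, led by Nr4a3 and Nr4a2 rather than Nr4a1. Nr4a3 went from 17 and 4 at 0 h to 29 and 37 at 2 h, 398 and 260 at 6 h and 156 and 64 at 12 h. All later libraries were above both 0 h libraries. The log2 change was 5.09 at 6 h (SE 0.61, limma adjusted p = 1.57e-06), 34-fold, and 3.41 at 12 h (SE 0.61, limma adjusted p = 9.54e-05); at 2 h it was 1.83 (SE 0.61), which did not pass (limma adjusted p = 0.143). Because the 0 h values are so low, the size of these changes depended on single libraries: without E2F1 0 h replicate 1 they were 6.01 at 6 h and 4.34 at 12 h, and without replicate 2 they were 4.16 and 2.49. Without 12 h replicate 1 or 2 the 12 h change was 2.78 or 4.05. Nr4a2 climbed later: its values were 182 and 106 at 0 h, 170 and 237 at 2 h, 336 and 241 at 6 h and 814 and 690 at 12 h. It rose by 1.03 at 6 h (SE 0.22, limma adjusted p = 0.000923) and by 2.42 at 12 h (SE 0.22, limma adjusted p = 4.55e-08), 5.36-fold. Nr4a1, in contrast with its level in serum, stayed between 241 and 1027 in all 8 libraries of the E2F1 line. Its changes were -1.24 at 2 h (SE 0.32, limma adjusted p = 0.0547), -0.06 at 6 h (SE 0.32, limma adjusted p = 0.881) and -0.61 at 12 h (SE 0.32, limma adjusted p = 0.107). Without E2F1 0 h replicate 1 the first was -1.78 and the last -1.14. The 2 h change passed with quantile normalization (-1.31, limma adjusted p = 0.0366). With only the groups compared, the 2 h and 12 h changes passed (limma adjusted p = 0.0228 and 0.0416). In 11 of 14 alternatives at 2 h and 12 of 14 at 12 h, Nr4a1 again did not pass. The authors' deposited tables for the E2F1 line list Nr4a3 at 5.15 for 6 h and 3.56 for 12 h, and Nr4a2 at 2.43 for 12 h. For 2 h the authors' deposited table lists Egr2 at -2.02.

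Egr1 and Nab1 shared a peak at 6 h of E2F1 induction. Egr1 had 4508 and 6762 at 0 h, 2279 and 2216 at 2 h, 10500 and 8304 at 6 h and 4140 and 3419 at 12 h. The 6 h libraries were its highest in the series, and the change from 0 h was 0.76 (SE 0.23, limma adjusted p = 0.00995). That call was lost without E2F1 0 h replicate 1 (0.47, adjusted p = 0.161) or 6 h replicate 1 (0.59, adjusted p = 0.105). Egr1 had been lower at 2 h than at 0 h by -1.3 (SE 0.23, limma adjusted p = 0.00593) and was lower at 12 h by -0.55 (SE 0.23, limma adjusted p = 0.043), the latter lost without E2F1 0 h replicate 2 (-0.26, adjusted p = 0.42) or 12 h replicate 2 (-0.42, adjusted p = 0.224). Nab1 went from 2690 and 2196 to 2475 and 2901, then to 5037 and 4278 and to 4222 and 3521. Its groups at 6 and 12 h lay above 0 h without overlap, by 0.93 (SE 0.12, limma adjusted p = 3.46e-06) and 0.67 (SE 0.12, limma adjusted p = 9.74e-05), and these calls held in every single-library omission.

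Egr2, Egr3 and Nab2 were lower at the end of E2F1 induction. Egr2 had 233 and 601 at 0 h, 94 and 93 at 2 h, 380 and 286 at 6 h and 157 and 128 at 12 h; the changes were -1.99 (SE 0.38, limma adjusted p = 0.0101), -0.18 (limma adjusted p = 0.707) and -1.39 (SE 0.38, limma adjusted p = 0.00393). Egr3 had 1059 and 1787, then 522 and 462, 904 and 575, and 398 and 332; the changes were -1.48 (SE 0.35, limma adjusted p = 0.0377), -0.93 (SE 0.35, limma adjusted p = 0.035) and -1.92 (SE 0.35, limma adjusted p = 0.000136). Nab2 had 3262 and 3073, 3610 and 3574, 3253 and 3048, and at last 2490 and 2261, lower than at 0 h by -0.42 (SE 0.11, limma adjusted p = 0.00226). The 2 starved libraries of the E2F1 line differed in both directions. Replicate 2 was above replicate 1 in 4 of the 8 genes, by 2.58-fold in Egr2, 2.1-fold in Nr4a1, 1.69-fold in Egr3 and 1.5-fold in Egr1. It was below replicate 1 by 4.25-fold in Nr4a3, 1.72-fold in Nr4a2, 1.225-fold in Nab1 and 1.06-fold in Nab2. Of 40 other immediate early genes 21 were higher in replicate 2. In some later groups the libraries differed in 1 direction. Replicate 2 was lower than replicate 1 for all 8 genes at 6 h of induction (median -0.44 on the log2 scale, with 4 of the 40 other genes higher). The same held at 12 h of induction (median -0.27, 8 of 40 higher). Replicate 2 was higher for all 8 at 12 h of serum (median 0.22, 21 of 40 higher). Without E2F1 0 h replicate 2 the Egr2 change at 12 h was -0.71 and its call was lost, against -2.08 without E2F1 0 h replicate 1. The Egr3 change at 6 h was -0.55 without E2F1 0 h replicate 2 and -0.61 without 6 h replicate 2. Its call was lost both times. All 3 calls at 2 h were lost without E2F1 0 h replicate 2 (Egr1 -1, Egr2 -1.31 and Egr3 -1.11). Egr2 was at -2.67 without E2F1 0 h replicate 1. The calls were lost also without either 2 h library, while the changes stayed at -1.32 and -1.28 for Egr1, -2 and -1.98 for Egr2 and -1.57 and -1.4 for Egr3 (adjusted p = 0.0617 to 0.262).

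Counted over the 8 genes of the E2F1 line against its 0 h, 3 were lowered and none raised at 2 h of doxycycline, where 1.86% of all genes were called and the E2f1 change of -0.02 did not pass. At 6 h 4 were raised and 1 lowered (51.7% of all genes called), and at 12 h 3 were raised and 4 lowered (61.5% of all genes called). From 2 to 6 h, where 47.6% of all genes were called, 5 of the 8 rose: Egr1 by 2.05 (SE 0.23), Egr2 by 1.81 (SE 0.38), Nab1 by 0.79 (SE 0.12), Nr4a1 by 1.18 (SE 0.32) and Nr4a3 by 3.26 (SE 0.61), the largest limma adjusted p being 0.00535. All 8 genes had 6 h values that did not overlap the 2 h values, with Nab2 the only 1 lower. The share of all genes without such overlap was not computed, so this count does not set the 8 apart. The Nr4a1 step was lost without 2 h replicate 1 (0.87, adjusted p = 0.0861) or 6 h replicate 1 (0.77, adjusted p = 0.11). From 6 to 12 h, with 35.3% of all genes called, Nr4a2 rose by 1.39 (SE 0.22, limma adjusted p = 0.000163). Over the same step 5 fell, namely Egr1 (-1.31, limma adjusted p = 0.000308), Egr2 (-1.21, 0.0194), Egr3 (-0.99, 0.038), Nab2 (-0.41, 0.00612) and Nr4a3 (-1.68, 0.0398). Only the Egr1 fall among these 5 held in each single-library omission; those of Egr2, Egr3, Nab2 and Nr4a3 were lost without 6 h replicate 1 (adjusted p = 0.131, 0.277, 0.0548 and 0.212) or 12 h replicate 2 (0.113, 0.171, 0.0666 and 0.316), Egr3 also without 12 h replicate 1 (0.0743) and Nr4a3 also without 6 h replicate 2 (0.071). The Nr4a3 fall was -2.31 without 12 h replicate 1.

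**Figure D2:**
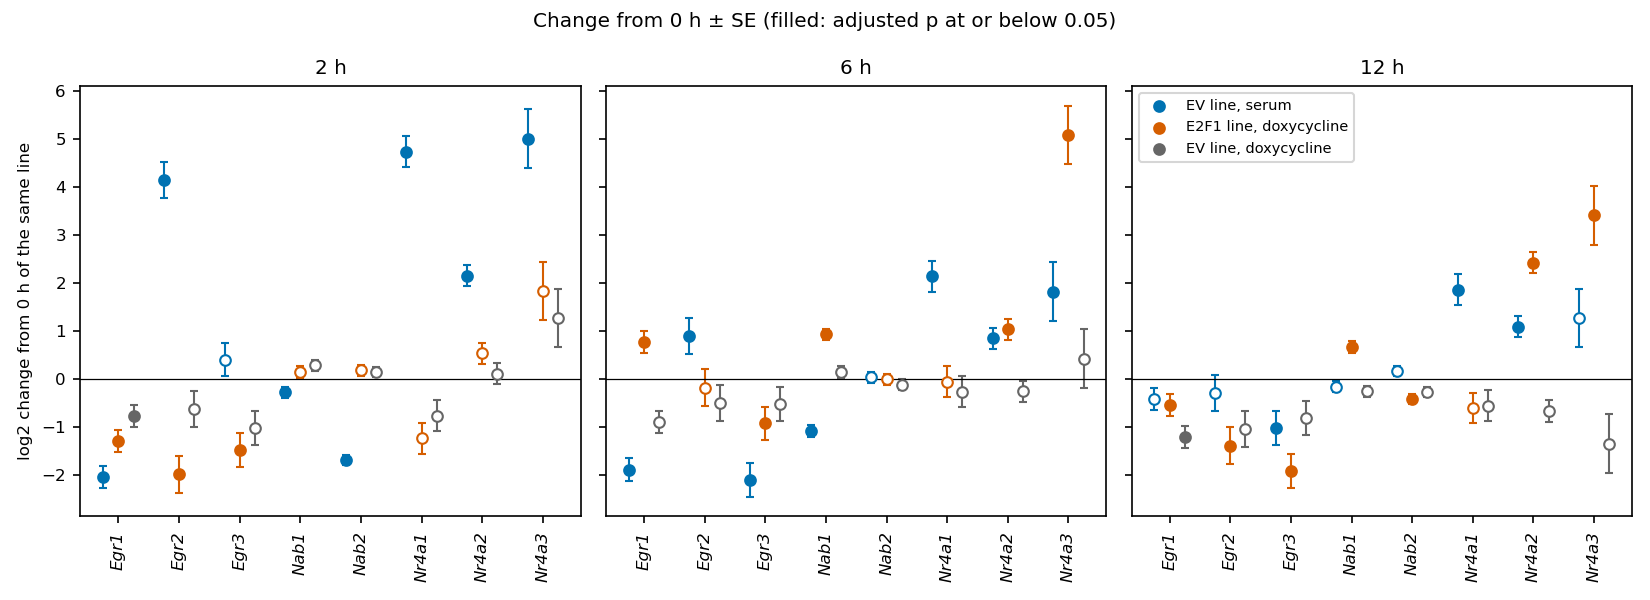
Log2 change from 0 h of the same line (y axis, bars are the SE of the fit) for each of the 8 genes at 2, 6 and 12 h, with serum in blue, doxycycline in the E2F1 line in orange and doxycycline in the EV line in grey; filled points have an adjusted p at or below 0.05. Serum raised Egr2 and Nr4a1 by 4.15 and 4.74 at 2 h, and E2F1 induction raised Nr4a3 by 5.09 at 6 h.

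Doxycycline in the EV line served as the control for the induction. There 1 of the 8 genes was lower at 2 h (7.35% of all genes called), 0 were called at 6 h (0.134% of all genes called by limma) and 1 was lower at 12 h (4.17% of all genes called). The gene was Egr1 both times, with 2001 and 2073 at 2 h, 2242 and 1579 at 6 h and 1701 and 1340 at 12 h against 3313 and 3708 at 0 h. Its changes were -0.78 (SE 0.23, limma adjusted p = 0.0434), -0.9 (SE 0.23, limma adjusted p = 0.34) and -1.21 (SE 0.23, limma adjusted p = 0.00555). The 2 h call was lost when any 1 of its 4 libraries was left out (adjusted p = 0.09 to 0.183), and the 12 h call without EV 0 h replicate 2 (-1.13, adjusted p = 0.118) or 12 h replicate 2 (-1.04, adjusted p = 0.0529). Egr2 passed at 12 h only without EV 0 h replicate 1 (-1.55, adjusted p = 0.0347). At 6 h 1 of the 8, Egr1, had an unadjusted p of 0.05 or less, at 0.00097. At 12 h all 8 changes were below 0, with a median of -0.74 against 0.002 for all genes. Nr4a3 had -1.35 (SE 0.61, limma unadjusted p = 0.0395, adjusted p = 0.264). Nr4a2 had -0.67 (SE 0.22, limma unadjusted p = 0.00782, adjusted p = 0.11). Both add to the 12 h differences between the lines given below. At 2, 6 and 12 h Nr4a2 was at 259 and 264, 213 and 191, and 141 and 163. Nr4a3 was at 30 and 48, 17 and 25, and 7 and 4 at these times. The Nr4a3 values were all below those of the E2F1 line at 6 and 12 h, and the Nr4a2 values below its 12 h values. Nr4a2 at 2 h in the EV line overlapped the 336 and 241 of the E2F1 line at 6 h. Nr4a1 stayed between 348 and 579 in these 6 libraries, Egr2 between 111 and 237 and Egr3 between 378 and 697. Nab1 was between 1725 and 2587 and Nab2 between 3220 and 4531.

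The change in the E2F1 line minus the change in the EV line passed the test for 4 genes at 6 h and 3 genes at 12 h. At 2 h it passed for 0 of the 8 (0.143% of all genes called by limma), and Egr2 had the largest difference, -1.36 (SE 0.54, unadjusted p = 0.0206, limma adjusted p = 0.502), as the only gene of the 8 with an unadjusted p of 0.05 or less. At 6 h, where 34.5% of all genes were called, the differences were 4.66 for Nr4a3 (SE 0.86, limma adjusted p = 0.000371), 1.66 for Egr1 (SE 0.32, limma adjusted p = 0.000615), 1.29 for Nr4a2 (SE 0.32, limma adjusted p = 0.00398) and 0.79 for Nab1 (SE 0.17, limma adjusted p = 0.00131). The Egr1 difference holds a change of -0.9 in the EV line (limma adjusted p = 0.34) and of 0.76 in the E2F1 line. At 12 h, with 50.5% of all genes called, they were 4.76 for Nr4a3 (SE 0.86, limma adjusted p = 0.000169), 3.09 for Nr4a2 (SE 0.32, limma adjusted p = 3.44e-07) and 0.92 for Nab1 (SE 0.17, limma adjusted p = 0.000186). All 7 calls held in each single-library omission. The Nr4a3 difference ranged from 3.74 to 5.59 at 6 h and from 3.84 to 5.69 at 12 h, the ends being without E2F1 0 h replicate 2 and replicate 1. Egr1 had 0.66 at 12 h (SE 0.32, limma adjusted p = 0.0967). Nr4a1 had 0.2 at 6 h and -0.05 at 12 h (SE 0.45 each, limma adjusted p = 0.76 and 0.939). For Egr2, Egr3 and Nab2, which were lower at 12 h in the E2F1 line, the difference from the EV line was -0.34 (SE 0.54), -1.09 (SE 0.5) and -0.14 (SE 0.15) and did not pass (limma adjusted p = 0.627, 0.0774 and 0.445).

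**Figure D3:**
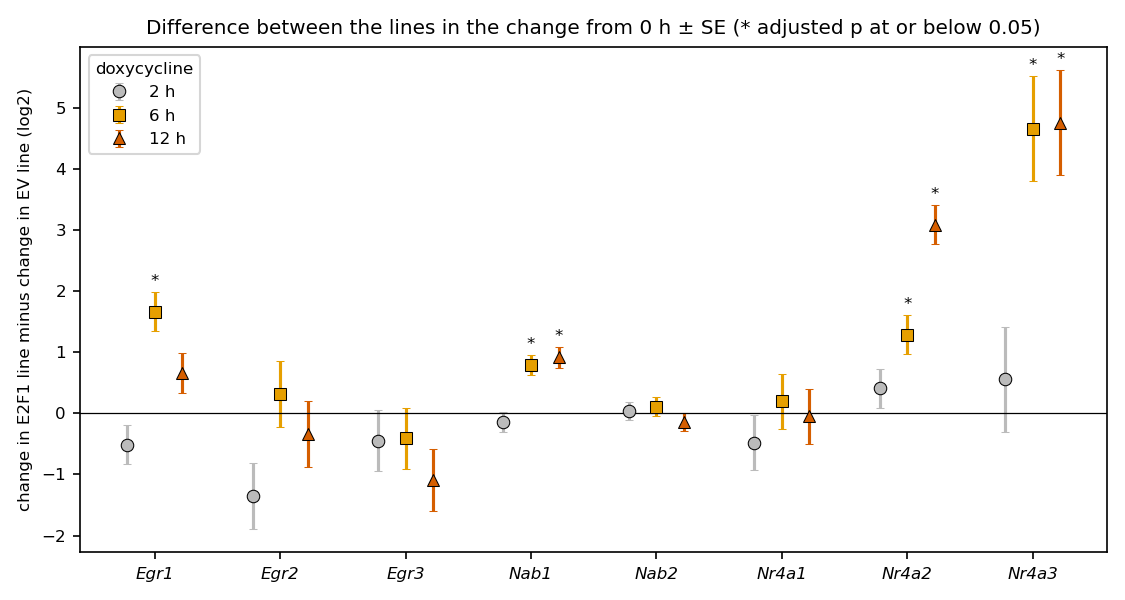
Difference between the lines in the log2 change from 0 h under doxycycline (y axis, E2F1 line minus EV line, bars are the SE of the fit) for the 8 genes at 2 h (circles), 6 h (squares) and 12 h (triangles); asterisks mark an adjusted p at or below 0.05. The 7 marked differences are all above 0, from 0.79 for Nab1 at 6 h to 4.76 for Nr4a3 at 12 h, and no difference at 2 h is marked.

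Serum and doxycycline were also compared within the EV line at matched times, which leaves the 0 h libraries out of the contrast. At 2 h all 8 genes differed (67.1% of all genes called), with 5 higher in serum: Nr4a1 by 5.5 (SE 0.32), Egr2 by 4.77 (SE 0.38), Nr4a3 by 3.74 (SE 0.61), Nr4a2 by 2.03 (SE 0.22) and Egr3 by 1.43 (SE 0.35). The other 3 were lower in serum, Nab2 by -1.83 (SE 0.11), Egr1 by -1.25 (SE 0.23) and Nab1 by -0.56 (SE 0.12). The largest limma adjusted p among the 8 was 0.00158. Egr3, which did not pass against 0 h, thus had 1370 and 1192 in serum against 590 and 378 in doxycycline. Against 0 h it had changed by 0.4 in serum and by -1.03 in doxycycline. At 6 h (65.8% of all genes called) 3 were higher in serum, Nr4a1 (2.4), Egr2 (1.39) and Nr4a2 (1.11), and 3 lower, Egr3 (-1.58), Nab1 (-1.24) and Egr1 (-1); the largest limma adjusted p was 0.00352. The Egr3 difference was -2.26 without serum 6 h replicate 1 and -0.9 without replicate 2. At 12 h (70.4% of all genes called) 5 were higher in serum, Nr4a3 (2.62), Nr4a1 (2.42), Nr4a2 (1.75), Egr1 (0.8) and Nab2 (0.43), with a largest limma adjusted p of 0.00453. Against 0 h Egr1 had changed by -0.42 in serum and by -1.21 in doxycycline at this time. The Egr1 difference at 12 h was lost without serum 12 h replicate 2 (0.49, adjusted p = 0.102) or doxycycline 12 h replicate 2 (0.63, adjusted p = 0.0585).

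Before any stimulus the lines differed in 2 of the 8 genes, with 15% of all genes called. Nr4a2 was at 182 and 106 in the E2F1 line against 255 and 229 in the EV line (-0.79, SE 0.22, limma adjusted p = 0.0237), and Nab2 at 3262 and 3073 against 3923 and 4036 (-0.33, SE 0.11, limma adjusted p = 0.0424). Neither call was stable: Nr4a2 was lost without E2F1 0 h replicate 2 (-0.41, adjusted p = 0.296) or either EV library (adjusted p = 0.0521 and 0.123), and Nab2 without any 1 of the 4 libraries (adjusted p = 0.106 to 0.197). Egr1 was higher in both E2F1 libraries than in both EV libraries, and its difference of 0.66 (SE 0.23) missed the threshold (limma adjusted p = 0.0599).

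Read counts per kb of exon (GENCODE M21 exon length, from 2.94 kb for Nab2 to 5.99 kb for Nr4a3) allow levels to be set side by side between genes. On this scale Egr1 made up 76.3% and 68.3% of the EGR level in the 2 starved EV libraries, Egr3 18.0% and 22.7%, and Egr2 5.63% and 8.95%. At 2 h of serum the order was turned over: Egr2 was 73.3% and 74.6% of the EGR level and Egr1 10.2% and 10.4%. The summed level had risen meanwhile, from 968 and 1210 counts per kb to 1890 and 1804. At 6 h of serum Egr1 was back to 51.3% and 52.4%, on the lowest EGR sum of any group, 515 and 320. In the E2F1 line at 6 h Egr1 made up 88.1% and 89.6% of a sum of 2659 and 2067, the highest of any group mean.

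The co-repressor pair changed its balance in both responses. Per kb, Nab1 was 27.3% and 27.8% of the pair in starved EV cells and 37.2% and 33.9% in starved E2F1 cells. It reached 53.3% and 47.2% at 2 h of serum, when Nab2 was low, and dropped to 17.0% and 13.1% at 6 h, when Nab1 was low. In the E2F1 line it was 52.6% and 50.2% at 6 h and 54.9% and 52.8% at 12 h of induction. For NR4A, Nr4a1 was 92.5% and 93.6% of the level at 2 h of serum, on a sum of 4624 and 5637 counts per kb against 208 and 281 at 0 h. At 12 h of E2F1 induction Nr4a2 was the major form, with 52.0% and 58.4% of a sum of 385 and 291, and Nr4a1 had 41.2% and 37.9%. Nr4a3 had its largest share at 6 h of induction, 16.4% and 17.5%; in serum it did not exceed 1.77% of the level. These shares describe RNA and carry no test.

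**Figure D4:**
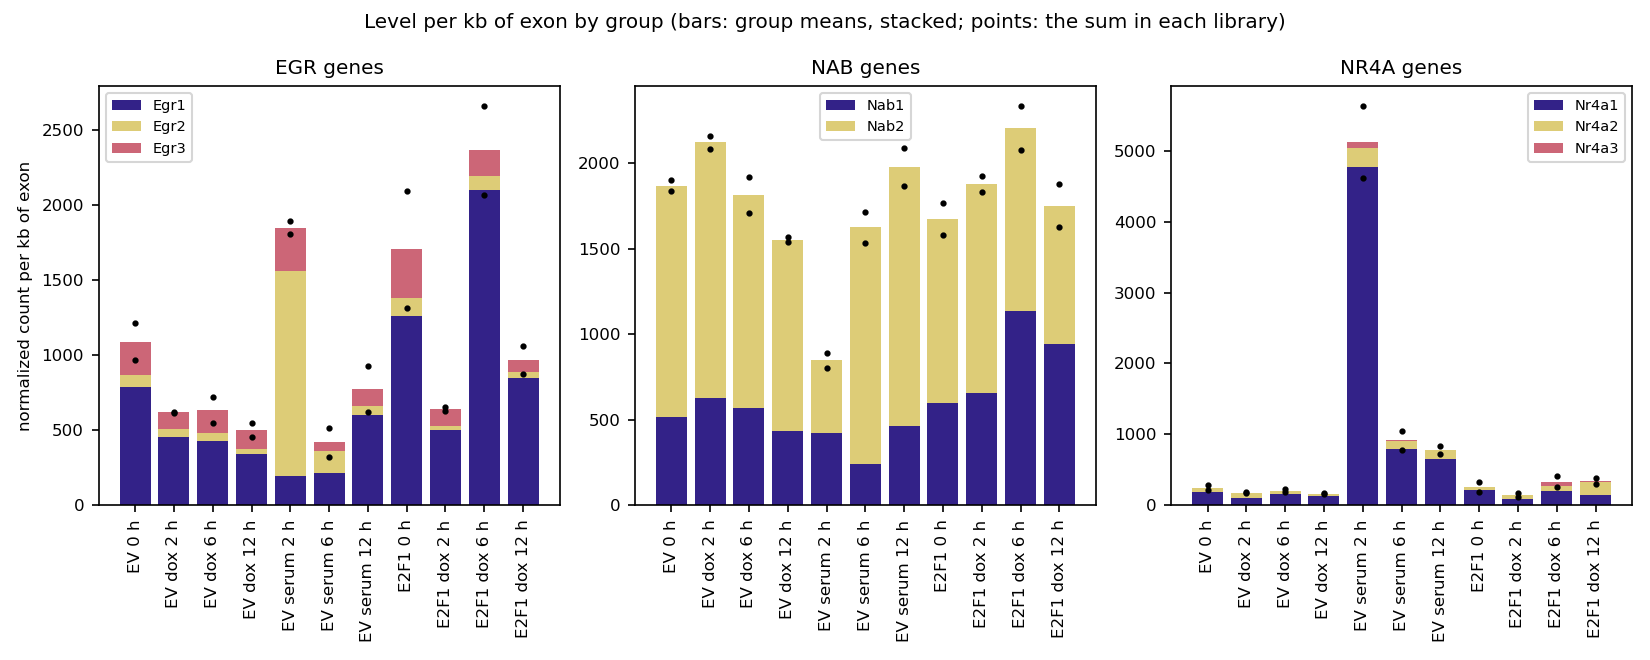
Normalized read counts per kb of exon (y axis, linear, from 0, with its own range in each panel) in each group, stacked by gene as group means, with the sum in each of the 2 libraries as a point. Egr2 fills most of the EGR bar at 2 h of serum (73.3% and 74.6%), Nab1 and Nab2 are about level in the E2F1 line at 6 and 12 h, and the NR4A bar at 2 h of serum is nearly all Nr4a1.

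Ranked by group mean, Nr4a1 was highest at 2, 6 and 12 h of serum, and all 6 of these libraries were above every other library; the remaining 8 groups formed a run in which only EV at 12 h of doxycycline was above the next group without overlap. Nr4a2 was highest at 2 h of serum, followed by 12 h of E2F1 induction and by 12 h and 6 h of serum, each apart from the next. Nr4a3 had the order 2 h of serum (454 and 596), 6 h of induction (398 and 260) and 12 h of induction (156 and 64), after which neighbours overlapped except below the E2F1 line at 2 h. For Egr2, 2 h of serum stood apart, and of the 10 other groups only EV at 12 h of doxycycline and the E2F1 line at 2 h were neighbours without overlap. Egr3 had the narrowest range of the EGR genes, with group means that differed at most 5.72-fold, and most of its neighbours overlapped. Egr1 ran from 868 and 838 at 2 h of serum to 10500 and 8304 at 6 h of E2F1 induction, and its top 3 neighbours, E2F1 induction at 6 h, the E2F1 line at 0 h and induction at 12 h, did not overlap. Nab1 was highest at 6 and 12 h of induction, each apart from the next group, and lowest at 6 h of serum. Nab2 was lowest at 2 h of serum and next lowest at 12 h of induction, and both stood apart from the group above.

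Other genes of the early response were read from a list of 40, all in the table. At 2 h of serum 35 of the 40 were higher and 3 lower (95% called against 70.9% of all genes), with a median log2 change of 1.94 against 0.03 for all genes. The largest rises were those of the matrix protein gene Ccn2 (6.35, SE 0.36) and of Ptgs2, which encodes the prostaglandin synthase COX-2 (5.6, SE 0.34). The largest falls were those of the MAP kinase phosphatase Dusp1 (-0.88, SE 0.38) and the AP-1 subunit Jund (-0.79, SE 0.14), so the changes of Egr1 (-2.04) and Nab2 (-1.69) lay below all 40. Of the 40, 24 were still raised and 4 lowered after 6 h of serum, as were 17 and 9 after 12 h. These shares, 70% and 65%, were close to the 67.5% and 65.7% of all genes. In the E2F1 line 1 was raised and 10 were lowered by 2 h of doxycycline (27.5% against 1.86% of all genes, median -0.49). By 6 h 8 were raised and 6 lowered (35% against 51.7%, median -0.12), and by 12 h 3 were raised and 21 lowered (60% against 61.5%, median -0.48). In the EV line 2 were raised and 8 lowered by 2 h (25% against 7.35%), 1 raised by 6 h (2.5% against 0.134%), and 1 raised and 6 lowered by 12 h (17.5% against 4.17%). The difference between the lines passed in limma for 0 of the 40 at 2 h (0.143% of all genes). There 13 of the 40 had an unadjusted limma p of 0.05 or less, but that share was not computed for all genes in any contrast. At 6 h the difference was higher in the E2F1 line for 4 and lower for 2 (15% against 34.5%), and at 12 h higher for 4 and lower for 12 (40% against 50.5%). The kinase gene Pim1 (2.79, SE 0.24) and the factor Klf4 (1.15, SE 0.15) rose most at 12 h of induction, and Dusp5 (-1.58, SE 0.34) and Fosb (-1.28, SE 0.31) fell most. Nr4a3 at 6 h (5.09) lay above all 40, whose largest change was 2.98.

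**Figure D5:**
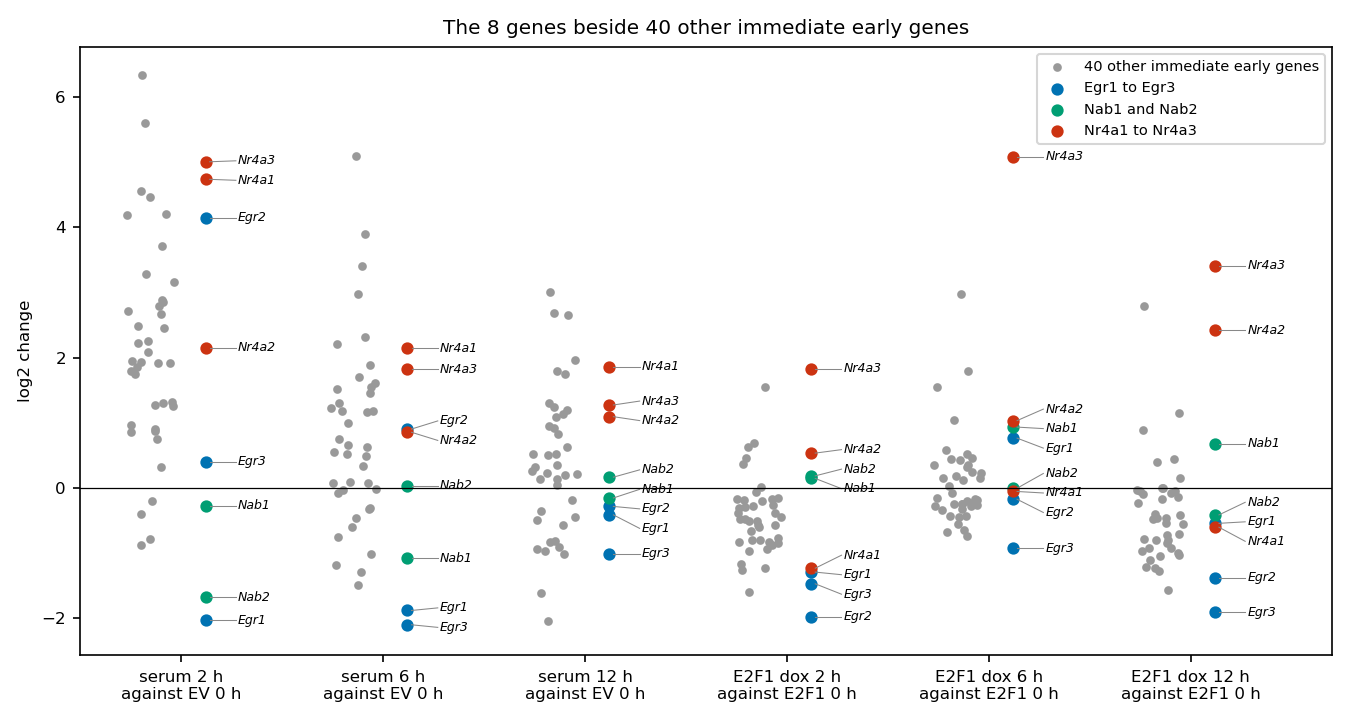
Log2 change from 0 h (y axis) of the 8 genes (coloured points, named) and of 40 other immediate early genes (grey points, spread sideways for legibility) at 2, 6 and 12 h of serum and of E2F1 induction. Egr1 and Nab2 lie below all grey points at 2 h of serum (-2.04 and -1.69), and Nr4a3 lies above them at 6 h of induction (5.09).

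Genes that act upstream of EGR and NR4A transcription (27 of 28 in the table) had 17 higher and 4 lower at 2 h of serum (77.8% called against 70.9% of all genes) and 12 higher and 9 lower at 12 h of E2F1 induction (77.8% against 61.5%). SRF itself and its coactivator moved with serum: Mrtfa was higher by 1.95 (SE 0.09) and Srf by 1.91 (SE 0.19) at 2 h, while the chromatin kinase gene Rps6ka5, which encodes MSK1, was lower by -2.43 (SE 0.24) and the ERK1 gene Mapk3 by -0.94 (SE 0.08). At 12 h of induction Mef2c (2.4, SE 0.2) and the MSK2 gene Rps6ka4 (1.07, SE 0.07) had the largest rises, and Srf (-0.93, SE 0.19) and Mef2d (-0.82, SE 0.11) the largest falls. Among cofactors and partners (13 of 15 in the table), 6 were higher and 6 lower at 2 h of serum (92.3% called against 70.9% of all genes), led by the demethylase Kdm1a (1.09, SE 0.08) and the coactivator Ncoa3 (0.82, SE 0.11) upward and by the NR4A partners Rxrb (-0.73, SE 0.07) and Rxra (-0.72, SE 0.08) downward. At 12 h of induction 5 were higher and 3 lower, 61.5% as for all genes, with Trim28 (0.85, SE 0.07) and Hdac1 (0.8, SE 0.08) at the top and the NAB2-binding remodeller gene Chd3 (-0.76, SE 0.11) and Kdm1a (-0.46, SE 0.08) at the bottom.

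Genes known as EGR1 or EGR2 targets, besides Nab2, were 12 higher and 2 lower of 16 in the table at 2 h of serum (20 in the list), 87.5% against 70.9% of all genes, with a median of 1.65. This was the time at which Egr1 RNA was low and Egr2 RNA high. The growth factor genes Fgf2 (6.89, SE 0.32) and Vegfa (5.46, SE 0.16) rose most, and the acetyltransferase gene Ep300 (-0.18, SE 0.07) was among those that fell. At 6 h of E2F1 induction, when Egr1 RNA was highest, 5 were higher and 4 lower with a median of -0.25. Their share of 56.2% was near the 51.7% of all genes. At 12 h 4 were higher and 8 lower (75% against 61.5%), with Cdk5r1 (1.83, SE 0.25) and Tgfb1 (0.97, SE 0.15) at the top and the sphingosine kinase gene Sphk1 (-1.92, SE 0.15) and the matrix gene Thbs1 (-1.39, SE 0.29) at the bottom. All genes named from these lists had a limma adjusted p of 0.0476 or less. The lists share members with each other, such as Srf and Ep300, and each target also answers to other factors.

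Across the 11 group means, genes with a pattern most like each member were sought among the 7229 genes whose group means spanned at least 1 on the log2 scale. The correlations are descriptions over groups that share libraries' scaling, and carry no test. Nr4a1 was most like Phlda1 (Pearson r = 0.982), Errfi1 (0.979) and Cyth3 (0.979), and Egr2 most like Lbh (0.961), Trib1 (0.958) and Runx1 (0.952). Nr4a3 was most like Tada2b (0.964), Zdhhc18 (0.959) and Fam104a (0.953), and Nr4a2 most like Polr2c (0.946), Pnn (0.945) and Exosc3 (0.937). Nab1 was most like Fads2 (0.978), Flot2 (0.961) and Mpdz (0.96), and Nab2 most like 4632404H12Rik (0.937), Eef2kmt (0.925) and Tent5b (0.923). Egr1 was most like Gm14117 (0.901), Fam102b (0.882) and Itsn1 (0.877), and Egr3, whose best values were the lowest, most like Zfp36l1 (0.792), Smad3 (0.783) and Slc22a23 (0.772). For these same pairs the rank correlation, Spearman rho, ran from 0.636 for Nab2 with 4632404H12Rik to 0.982 for Nr4a1 with Errfi1. Among the 8 genes themselves the highest r was 0.91 for Egr2 with Nr4a1, then 0.8 for Egr1 with Nab1 and 0.78 for Nr4a2 with Nr4a3. The lowest was -0.73 for Egr2 with Nab2, and Egr1 with Egr2 had -0.36.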

How the data were processed

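Per the submitters' processing notes, FastQC, Trimmomatic, HISAT2, featureCounts and DESeq2 were named, with the mouse build mm10; their versions and the use of strand are not given in the sources used here. The authors deposited a table of normalized counts in whole numbers (unit: score, since they are rounded after scaling and are not raw counts) for 11208 genes, the lowest with a mean of 99.6. The raw depth is unknown, so no count test was run. The authors also deposited, for 9 comparisons, log2 fold changes and adjusted p-values; every listed gene changed by 2.0 or more on the log2 scale in either direction, with adjusted p-values up to 0.05.

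Here log2(value + 1) was fitted with limma 3.58.1 in R 4.3.3, with 1 mean for each of 11 groups, a mean-variance trend and 11 residual degrees of freedom. A filter of 10 in at least 2 libraries removed no gene. P-values were adjusted over all 11208 genes (Benjamini-Hochberg), with a threshold of 0.05; 20 contrasts were run and 0.05 was applied to each alone. Fold changes are on the log2(value + 1) scale and understate those of low genes such as Nr4a3. A 2-library group is all the replication there is, and its precision rests on the spread pooled over groups. The fit was tested on simulated data. Group and replicate were taken from the labels. Of the 11208 identifiers 10977 matched GENCODE M21 (GRCm38, the same assembly as mm10), including all 8 members; promoters came from RefSeq. The genes named were all 8 members, the 3 genes most like each, from each list the 2 largest rises and falls past the threshold at 2 h of serum and at 12 h of E2F1 induction, and E2f1; Ddx3y was chosen after its values were seen. A gene that this rule also names is not reported here. The members and lists were chosen with earlier results of these data known. Alternatives were another pseudocount (8), a mean of at least 500, other scalings, a replicate term, only the groups compared, a 2-fold minimum and each library left out.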

Additional observations from a re-analysis of the deposited data

Results flagged for a closer look

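The change from 0 h under doxycycline differed between the E2F1 line and the EV line, by a test of the difference itself, in 7 cases. On the log2 scale, E2F1 line minus EV line, these were 1.66 for Egr1, 0.79 for Nab1, 1.29 for Nr4a2 and 4.66 for Nr4a3 at 6 h, and 0.92 for Nab1, 3.09 for Nr4a2 and 4.76 for Nr4a3 at 12 h. The limma adjusted p ranged from 3.44e-07 to 0.00398. The same test passed for 34.5% of all genes at 6 h and 50.5% at 12 h, so the count of 7 does not set the genes apart. Of the largest, Nr4a3 rests on 0 h values of 17, 4, 19 and 12. The Egr1 difference at 6 h holds a change of -0.9 in the EV line and of 0.76 in the E2F1 line. With 2 libraries a group, no library could be tested as an outlier.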

How the results depend on the processing

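Each gene in a contrast was read under each alternative, and every such reading was counted. Of these readings 1528 kept direction and call, 105 lost the call, 11 gained it and 18 turned sign. The 1528 include changes that had not passed and again did not. The turns were in changes that had not passed: Nab2 at 6 h of serum (-0.23 with quantile normalization, -0.19 with equal totals), Nab2 at 12 h of serum (-0.02, quantile), and, leaving out the 0 h libraries numbered 2, an alternative chosen after seeing the data, Egr2 at 12 h of serum (0.21), Nab1 at 2 h (-0.01), Egr2 (0.5) and Nr4a1 (0.47) at 6 h of E2F1 induction and Nr4a1 in the EV line at 6 h (0.06). Leaving out 1 library at a time gave -0.09 to 0.14 for Nab2 at 6 h and -0.78 to 0.21 for Egr2 at 12 h of serum; -0.01 to 0.29 for Nab1 at 2 h, -0.86 to 0.5 for Egr2, -0.05 to 0.04 for Nab2 and -0.6 to 0.47 for Nr4a1 at 6 h of induction; and -0.59 to 0.06 for Nr4a1 in the EV line at 6 h.

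Counts of the 8 genes called moved in these cases. At 6 h of serum 4 passed with a mean of at least 500, which leaves 8730 genes and 6 of the 8, without Nr4a2 and Nr4a3; at 12 h 6 passed with quantile normalization. E2F1 induction gave 0 at 2 h without the 0 h libraries numbered 2 (0 to 4 leaving out 1 library), at 6 h 2 with a 2-fold minimum and 3 with the mean filter, and at 12 h 4 with a 2-fold minimum. In the EV line doxycycline gave at 2 h 0 with a 2-fold minimum, 2 with only the groups compared, 0 without the 0 h libraries numbered 2 and 0 leaving out any library, and at 12 h 0 without those libraries and 0 to 2 leaving out 1. The difference between lines gave 2 at 6 h and 1 at 12 h with the mean filter and 5 at 12 h with only the groups compared. Serum against doxycycline at 12 h gave 3 with a 2-fold minimum and 3 with the mean filter. The step from 6 to 12 h of induction gave 2 to 6 leaving out 1 library. At 0 h between lines the count was 0 with a 2-fold minimum, with only the groups compared and without the libraries numbered 2, 1 with the mean filter, and 0 to 2 leaving out 1 library. Except for the settings built to test fewer genes or samples, the cause was not tested.

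The replicate numbers pair the samples only by name: deviations of same-numbered libraries had r over 0.1 in 18 of 55 pairs of groups (median 0.03). A replicate block within each line took the count at 0 h between lines to 0, with Nab2 at -0.22 and Nr4a2 at -0.66 (limma adjusted p = 0.137 and 0.0792), and Egr2 at 6 h of serum to an adjusted p of 0.0513.

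Scaling each library to the same total lowered the median of all genes by -0.374 at 2 h and -0.214 at 6 h of serum and -0.117 at 6 h of induction, and changed the calls at 2 h of serum from 4200 higher and 3752 lower to 2611 and 5907. With 2 libraries a group, small changes of low genes were not detectable.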
